A study of Homo sapiens with 8 samples.

Results

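The genes described here are 10 regulators of the G1 phase of the cell cycle: the D cyclins CCND1, CCND2 and CCND3, their kinases CDK4 and CDK6, the kinase inhibitors CDKN1A, CDKN1B, CDKN1C and CDKN2C, and the retinoblastoma gene RB1. They were taken by gene symbol from the RNA count files, which list 43682 symbols, and all 10 were present and passed the filter on low counts. The 4 RNA libraries came from UM-RC-2, an established line of clear cell renal cell carcinoma whose own VHL gene carries a mutation per the labels. Replicates 1 and 2 of each group stably carried either VHL, the introduced tumour suppressor, or a construct that the labels call VEC. Both constructs were delivered by lentiviral infection under blasticidin selection at 10 µg/ml, so the introduced construct is the labelled difference between them. The labels do not say whether the replicates were separate cultures or infections, so the spread on which the p-values rest may be technical. With the replicate number as a term, that spread is how far the change from VEC to VHL varied between replicate pairs. It was estimated with information shared over genes, so a gene's p-value does not rest on its own 2 pairs alone. The H3K27ac tables of the same series name their regions without gene or position and were not used here.

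A D cyclin binds CDK4 or CDK6, and the complex phosphorylates the RB1 protein, which releases E2F transcription factors that switch on genes of DNA replication. The INK4 inhibitors, among them the CDKN2C product p18, bind CDK4 and CDK6 directly, whereas the CIP/KIP inhibitors p21 (CDKN1A), p27 (CDKN1B) and p57 (CDKN1C) bind cyclin and kinase together. The VHL protein brings about the degradation of the oxygen-regulated subunits of hypoxia-inducible factors, and CCND1 is a known target of the HIF2 factor in renal carcinoma cells, which is the reason to set it against the other G1 genes.

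Totals ranged from 16230291 to 50027348 counts, with replicate 2 the deeper in each group. Libraries with the same replicate number were alike (r = 0.991 and 0.978 across 21673 genes) and libraries of the same group were not (r = 0.502 for VEC and 0.531 for VHL). The share of counts on pseudogenes was 1.37% (VEC) and 2.07% (VHL) for replicate 1 but 31.3% (VEC) and 24.9% (VHL) for replicate 2. Each gene was therefore compared between VHL and VEC within a replicate number, and the test below, called the blocked fit, holds the replicate number as a term. VHL RNA itself was higher in the VHL library of each pair (37.1 and 146 CPM for replicate 1, 88.9 and 151 CPM for replicate 2, where CPM is the count per 1000000 of the TMM-scaled library), and a count per symbol cannot tell introduced from native transcripts. The kidney marker PAX8 was present at 40.8 to 75.9 CPM, and KRT19 had 0 counts in every library. Of 12 markers of other cell types, CD3E, PECAM1, CDH5, VWF and COL3A1 had 0 counts in every library, and CD14, COL1A1, HBB and ALB had at most 4. The leukocyte gene PTPRC (72 and 63 counts in VEC and VHL) and the fibroblast gene DCN (15 and 18) were counted in replicate 2 alone, and CD68, a lysosomal gene of macrophages, had 217 to 1925 counts.

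CCND1 was lower with VHL in both replicate pairs. Replicate 1 gave 83.3 CPM with VEC and 48.8 CPM with VHL, and replicate 2 gave 67.6 and 49.7 CPM. Both VHL libraries lay below both VEC libraries, and the VHL libraries were nearly equal in CPM. Levels set side by side across replicate numbers depend on how these unlike libraries were scaled. In a bulk library, less RNA per cell and fewer cells with the RNA cannot be told apart. The level in VHL was 0.586 times that in VEC in pair 1 and 0.735 times in pair 2. The log2 change was -0.77 in pair 1 (95% counting interval -0.89 to -0.66) and -0.44 in pair 2 (-0.53 to -0.36). These intervals do not overlap, and they cover counting error only.

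In the blocked fit CCND1 had a log2 change of -0.61 ± 0.21 (SE, n = 2 per group), with an adjusted p of 0.102 in edgeR's quasi-likelihood test with Benjamini-Hochberg adjustment over all 24417 genes tested. It was therefore not called at the threshold of 0.05. The result lay close to that threshold and depended on the setting: CCND1 was called as lower in 5 of 6 alternative fits with the replicate term, with adjusted p-values from 0.000158 in DESeq2 to 0.0396 with library totals as the only scaling, and was not called without a filter on low counts (adjusted p = 0.183). With group as the only term the change was -0.62 ± 0.48 (adjusted p = 0.999991, edgeR). By size, 12.7% of all genes tested and 8.66% of protein-coding genes tested had a larger decrease than CCND1 in the blocked fit.

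CCND2 was higher with VHL in both pairs, in the opposite direction to CCND1. Its level was 170 CPM with VEC and 218 CPM with VHL for replicate 1, against 98.4 and 144 CPM for replicate 2. Replicate 1 was above replicate 2 within each group, and the groups overlapped because VHL of replicate 2 was below VEC of replicate 1. The log2 changes were 0.35 and 0.55, and the blocked change of 0.45 ± 0.23 was not called (adjusted p = 0.377, edgeR), although DESeq2 with the replicate term called it (0.42, adjusted p = 3.56e-05).

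CCND3 had few counts, between 153 and 211 in a library. Levels were 6.61 CPM (VEC) and 9.86 CPM (VHL) for replicate 1 and 3.68 and 5.17 CPM for replicate 2, higher with VHL in each pair, with the groups overlapping. The log2 changes of 0.57 and 0.48 were close to each other, and the blocked change was 0.53 ± 0.33 (adjusted p = 0.572, edgeR). Its counting intervals were wide, from 0.26 to 0.90 in pair 1 and from 0.19 to 0.79 in pair 2.

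CCND1 made up a smaller share of the D cyclin counts in the VHL library of each pair. It took 32.0% of the counts of the 3 D cyclins in VEC of replicate 1 (95% Wilson interval 30.8% to 33.2%) and 17.7% in VHL (16.6% to 18.7%). In replicate 2 it made up 39.8% in VEC (38.8% to 40.9%) and 24.9% in VHL (24.0% to 25.9%). These intervals cover counting error only. The share of CCND2 rose from 65.5% to 78.8% in replicate 1 and from 58.0% to 72.5% in replicate 2. The 3 shares are parts of the same total and CCND3 took at most 3.57%, so this rise largely mirrors the fall in the share of CCND1. Both genes moved in CPM, CCND1 down and CCND2 up in each pair, so the shift in shares is not due to CCND1 alone. Counts are not corrected for transcript length, so a share is read only against the same gene's share in another library.

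**Figure D1:**
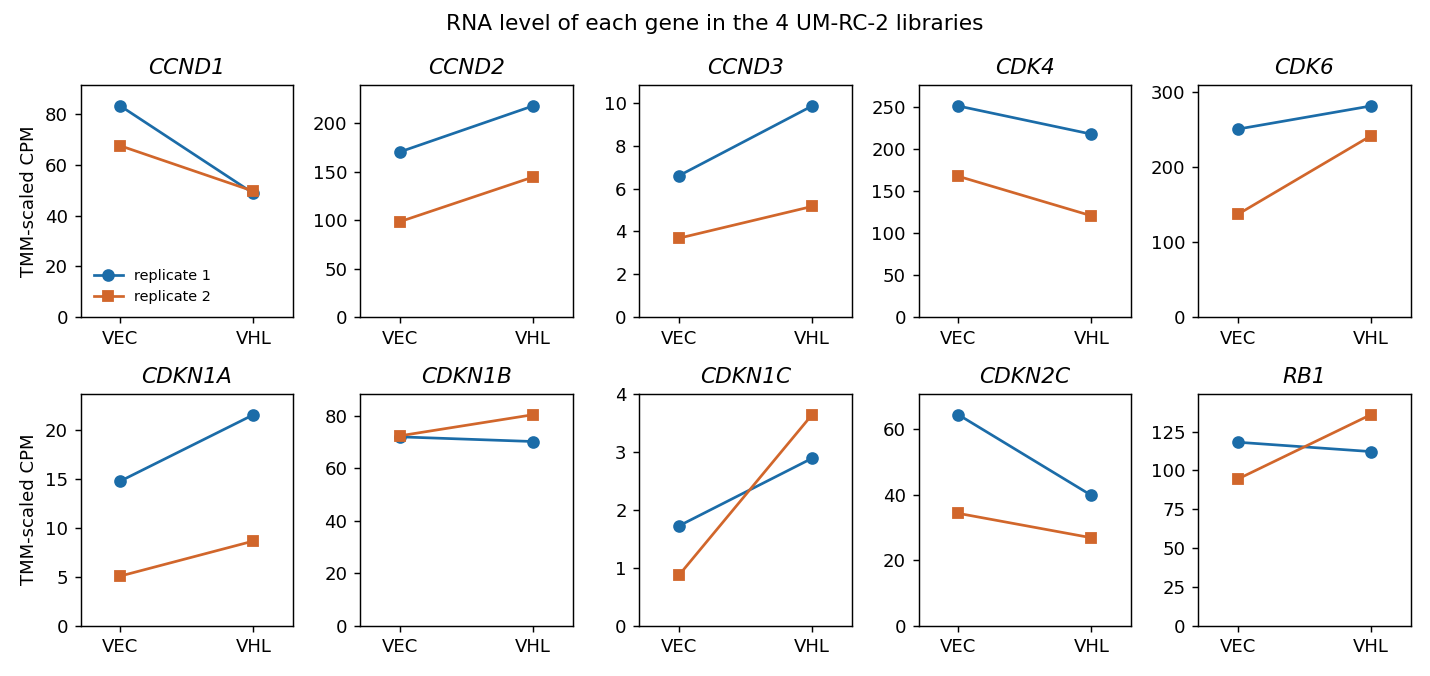
RNA level of each of the 10 genes on a linear axis of TMM-scaled CPM, with circles for replicate 1, squares for replicate 2 and a line joining VEC to VHL of the same replicate number. The VHL points of CCND1 (48.8 and 49.7 CPM) lie below both VEC points, those of CDKN1C (2.89 and 3.65 CPM) lie above both, and the groups overlap for the other 8 genes.

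The kinase genes differed from each other in direction. CDK4 was lower with VHL in both pairs, with 251 (VEC) and 218 CPM (VHL) for replicate 1 and 167 and 120 CPM for replicate 2. Its log2 changes were -0.21 and -0.47, with a blocked change of -0.34 ± 0.23 (adjusted p = 0.641, edgeR). CDK6 was higher in both pairs, with 251 and 281 CPM for replicate 1 and 137 and 241 CPM for replicate 2. Most of its change came from pair 2, at 0.82 against 0.17 in pair 1, and the blocked change was 0.49 ± 0.24 (adjusted p = 0.349, edgeR). Both genes had their replicate 2 levels below their replicate 1 levels within each group. The log2 ratio of CDK4 to CDK6 counts, which does not depend on how libraries are scaled, moved by -0.37 (pair 1) and -1.29 (pair 2). Neither kinase gene was called in any of the fits.

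The CIP/KIP inhibitor genes ranged from no common direction to the largest change among the 10 genes. CDKN1A, whose product p21 is a main effector of p53, had 14.8 CPM with VEC and 21.6 CPM with VHL for replicate 1, and 5.09 and 8.67 CPM for replicate 2. It was higher with VHL in each pair, by 0.54 and 0.76 on the log2 scale, while both libraries of replicate 1 lay above both of replicate 2. The blocked change was 0.65 ± 0.28 (adjusted p = 0.242, edgeR). CDKN1B, whose product p27 restrains cyclin E with CDK2, had 72.1 and 70.3 CPM for replicate 1 and 72.4 and 80.5 CPM for replicate 2. Its log2 changes of -0.04 and 0.15 had opposite signs, and the blocked change was 0.06 ± 0.21 (adjusted p = 0.985, edgeR).

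CDKN1C, an imprinted gene whose product is p57, was the least abundant of the 10 in counts. It had 40 and 54 counts in VEC and VHL of replicate 1 and 40 and 149 in replicate 2, or 1.73 and 2.89 CPM and 0.877 and 3.65 CPM. Both VHL libraries were above both VEC libraries. The level in VHL was 1.68 times that in VEC in pair 1 and 4.16 times in pair 2, with log2 changes of 0.72 and 1.98. The 95% counting intervals of the log2 ratio, 0.13 to 1.37 in pair 1 and 1.54 to 2.60 in pair 2, did not overlap. Its blocked change of 1.43 ± 0.47 missed the threshold (adjusted p = 0.0655, edgeR), and it was called as higher when protein-coding genes alone were tested (adjusted p = 0.0167, edgeR) or genes with at least 20 counts in every library (adjusted p = 0.000795, edgeR). DESeq2 gave it no adjusted p, since it was among the genes left out there for low counts.

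CDKN2C, the INK4 gene of the set, was lower with VHL in both pairs. Replicate 1 had 64.4 CPM with VEC and 39.8 CPM with VHL, and replicate 2 had 34.3 and 26.8 CPM, with log2 changes of -0.69 and -0.35. The VHL library of replicate 1 lay above the VEC library of replicate 2, so the groups overlapped. The blocked change was -0.52 ± 0.21 (adjusted p = 0.212, edgeR), and DESeq2 with the replicate term called it (-0.56, adjusted p = 0.00837). Of the other INK4 genes, CDKN2A had 0 counts in 3 libraries and 1 in VEC of replicate 2, and CDKN2B had 0 in both replicate 1 libraries and 8 and 4 in VEC and VHL of replicate 2. Neither passed the filter. CDKN2D, with 29 to 45 counts, had a log2 change of 0.22 ± 0.55 (adjusted p = 0.973, edgeR).

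RB1, the substrate of the D cyclin kinases, did not move the same way in the pairs. Its level was 118 CPM with VEC and 112 CPM with VHL for replicate 1, and 94.4 and 136 CPM for replicate 2. The log2 changes were -0.08 and 0.52, and VEC and VHL of replicate 1 lay between the libraries of replicate 2. The blocked change was 0.23 ± 0.22 (adjusted p = 0.829, edgeR).

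**Figure D2:**
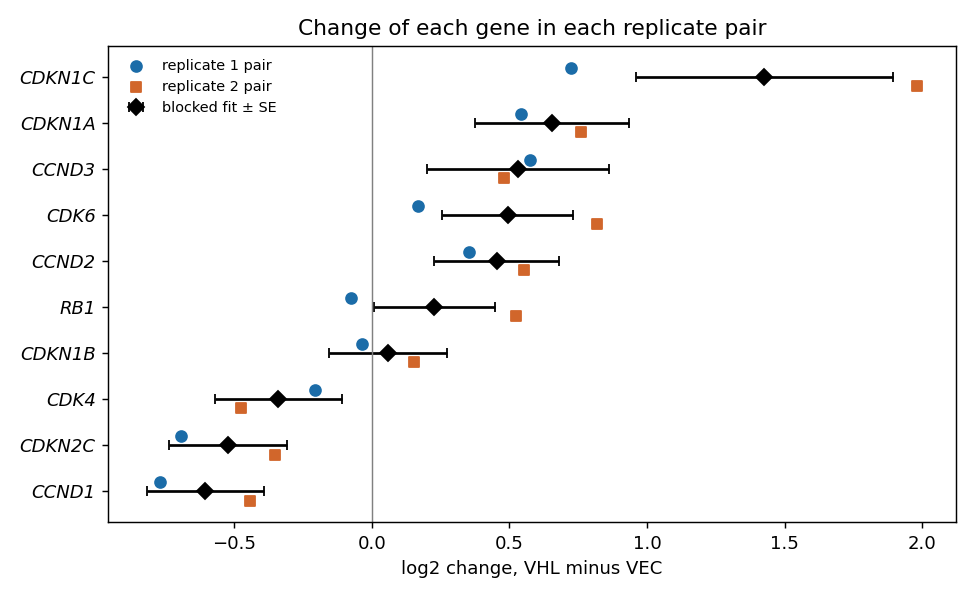
Log2 change from VEC to VHL for each gene, ordered by the blocked fit, with circles for the replicate 1 pair, squares for the replicate 2 pair and diamonds with bars for the blocked change ± SE. CCND1 (-0.61), CDKN2C (-0.52) and CDK4 (-0.34) are at the lower end, CDKN1C (1.43) is at the upper end, and CDKN1B and RB1 have points on both sides of 0.

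Across the 10 genes, 3 were lower with VHL in both pairs (CCND1, CDK4 and CDKN2C), 5 were higher in both (CCND2, CCND3, CDK6, CDKN1A and CDKN1C) and 2 had opposite signs (CDKN1B and RB1). Over all genes tested, 35.9% were counted as lower in both pairs and 22.8% as higher in both. The share counted as lower is too high, by an amount that was not determined. It includes genes such as PTPRC with 0 counts in both replicate 1 libraries, whose pair 1 change fell below 0 by rounding alone. The imbalance between the shares is therefore not read as a result. The median blocked change was 0.34 over the 10 genes and -0.03 over all genes tested. For the 10 genes the median was 0.07 in pair 1 and 0.50 in pair 2. Cyclins, kinases and inhibitors were each found on both sides of 0. None of the 10 was called in the blocked fit, in which 3.1% of genes were called (756 of 24417: 573 lower and 183 higher with VHL). An unadjusted p under 0.05 was found for 6 of the 10, against 3050 of the 24417 genes tested (edgeR). In other fits with the replicate term, 0 of the 10 were called without a filter (1.95% of all genes called there), 1 with library totals only (3.98%), 1 with DESeq2 size factors (4.09%), 2 with protein-coding genes alone (7.17%), 2 among genes with at least 20 counts in every library (9.73%) and 3 of the 8 that had an adjusted p in DESeq2 (9.66%). CCND1 was among the calls in each fit that had any, joined by CDKN1C in both fits with 2 calls and by CCND2 and CDKN2C in DESeq2. Levels did not overlap between groups for CCND1, below, and CDKN1C, above; over all genes tested, 3.39% had both VHL libraries below both VEC libraries and 4.47% had them above.

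CCND1 was then set against each of the 9 other genes as a ratio of counts within a library, a measure in which scaling cancels. The ratio was lower with VHL in both pairs for 8 of the 9, against 74.2% of the 17397 other genes counted in every library, so a lower ratio is not particular to these genes. Against CCND2 its log2 ratio was -1.03 in VEC and -2.16 in VHL of replicate 1, and -0.54 and -1.54 in replicate 2. That is a drop by 2.18 times in pair 1 and by 2.00 times in pair 2, and the groups did not overlap. The changes against CCND3 were -1.35 and -0.93, those against CDK6 were -0.94 and -1.26, and those against CDKN1A were -1.31 and -1.21. They were larger still against CDKN1C (-1.52 and -2.50). Against the genes with no common direction they were -0.73 and -0.60 for CDKN1B and -0.70 and -0.97 for RB1.

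CDK4 was the exception, and CDKN2C had the smallest decreases among the 8. The ratio of CCND1 to CDK4 moved by -0.56 (pair 1) and 0.03 (pair 2), and that of CCND1 to CDKN2C by -0.08 and -0.09. CCND1 and CDKN2C thus differed from VEC by nearly the same amount in each pair. Libraries did not overlap between groups for 6 of the 9 ratios, the overlapping ones being those with CDK4, CDKN1A and CDKN2C, against 27.1% of the 17397 genes with both VHL ratios below both VEC ratios. With 2 libraries against 2, the exact permutation test (two-sided, unpaired) cannot go below p = 0.333, which is the value for each of these 6. Any ratio without overlap gets that value, so the test adds nothing to the overlap. It ignores the replicate pairs, and no other test of the ratios was run.

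**Figure D3:**
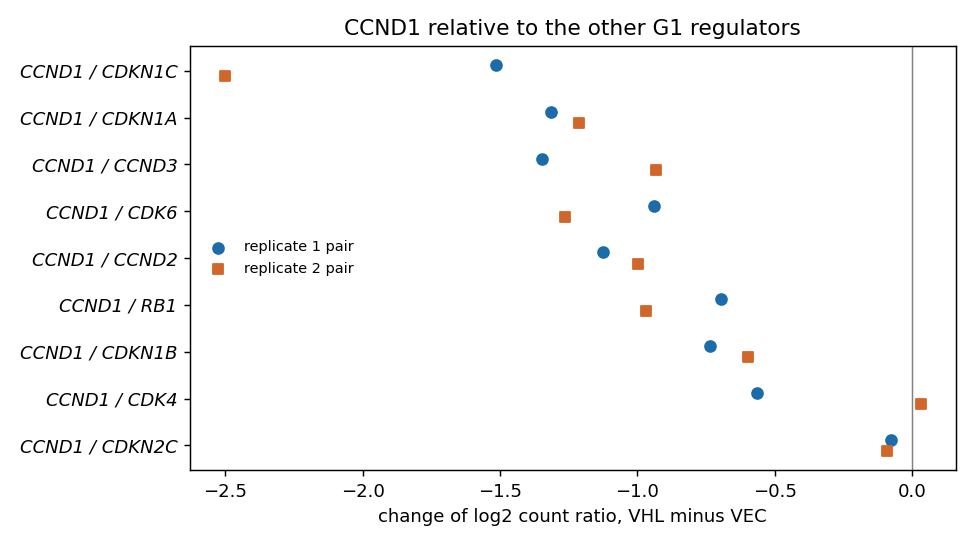
Change from VEC to VHL of the log2 ratio of CCND1 counts to the counts of each other gene, with circles for the replicate 1 pair and squares for the replicate 2 pair. Points lie left of 0 for 8 genes in both pairs, those for CDKN2C are close to 0 (-0.08 and -0.09), and those for CDK4 are at -0.56 and 0.03.

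Genes with the pattern most like CCND1 were sought among 7010 others with at least 10 CPM in every library, by the distance of centred log2 CPM over the 4 libraries. The closest 4 were RIT1 (a RAS-related GTPase), HLA-B (an antigen-presenting molecule), MAPRE2 (a microtubule-binding protein) and STS (steroid sulfatase), at distances of 0.03, 0.08, 0.11 and 0.11 in that order. RIT1 had log2 changes of -0.81 and -0.45 in the pairs. These are likenesses over 4 points that share libraries with CCND1, and HLA-B shares reads with near-identical relatives, so its counts are uncertain. None of the 4 was called in the blocked fit. RIT1, like CCND1, was called in every alternative with the replicate term except that without a filter on low counts. In those fits 3.98% to 9.73% of all genes were called. HLA-B was called in the same fits except that with library totals only, and MAPRE2 and STS were called in none.

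Hypoxia-inducible genes fell together in the same libraries, most of them by more than the decrease of CCND1. Of 23 hypoxia-inducible genes listed, 22 were tested (ANKRD37 had at most 1 count in a library) and 20 were called as lower with VHL in the blocked fit, against 2.35% of all genes tested. Their median change was -1.59. CCND1, at -0.61, had a smaller decrease than 20 of the 22. BHLHE40, a clock repressor, was also not called (-0.48 ± 0.21, adjusted p = 0.267, edgeR).

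Among other genes of the G1 to S step, E2F3 alone was called. The 27 listed included cyclin E, CDK2, the CDK-activating kinase, further inhibitors, RB1 relatives, E2F factors and their partners, and D cyclin ligases. CDC25A, SKP2, CKS1B, CDC37 and GSK3B were also listed. Of the 27, 25 were tested, and 1 was called as higher and 0 as lower, against 0.749% and 2.35% of all genes. Their median change was 0.05, with 16 higher and 9 lower. E2F3, a transcription factor released from RB1, rose with VHL: replicate 1 gave 13.4 CPM (VEC) and 22.0 CPM (VHL), and replicate 2 gave 47.8 and 89.5 CPM. Its blocked change was 0.82 ± 0.22 (adjusted p = 0.0107, edgeR), it was called in all 6 alternatives with the replicate term, and its level in replicate 2 was above that of replicate 1 in both groups. CCNE1 and CDK2, the cyclin and kinase that act after the D cyclins, had log2 changes of 0.41 ± 0.29 and 0.05 ± 0.21 and were not called (adjusted p = 0.657 and 0.985, edgeR).

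Target genes of E2F, which act in DNA replication, were split in direction. All 21 listed were tested, 11 were higher and 10 lower, their median was 0.07, and none was called in edgeR's blocked fit, against 3.1% of all genes. GINS2 was called as lower with protein-coding genes alone (7.17% of all genes called there), under the filter of 20 counts in every library (9.73%) and in DESeq2 (9.66%). The medians were -0.03 in pair 1 and -0.06 in pair 2, so the sign of the median differed between the blocked fit and the pairs. The smallest adjusted p-values belonged to GINS2, a helicase subunit, at -0.59 ± 0.22 (adjusted p = 0.129, edgeR), and RRM2, a ribonucleotide reductase subunit, at 0.48 ± 0.22 (adjusted p = 0.309, edgeR). GINS2 had 57.2 and 39.2 CPM with VEC and VHL for replicate 1, and 30.3 and 19.4 CPM for replicate 2. RRM2 was higher with VHL in each pair, with 68.3 and 104 CPM for replicate 1 and 150 and 192 CPM for replicate 2.

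**Figure D4:**
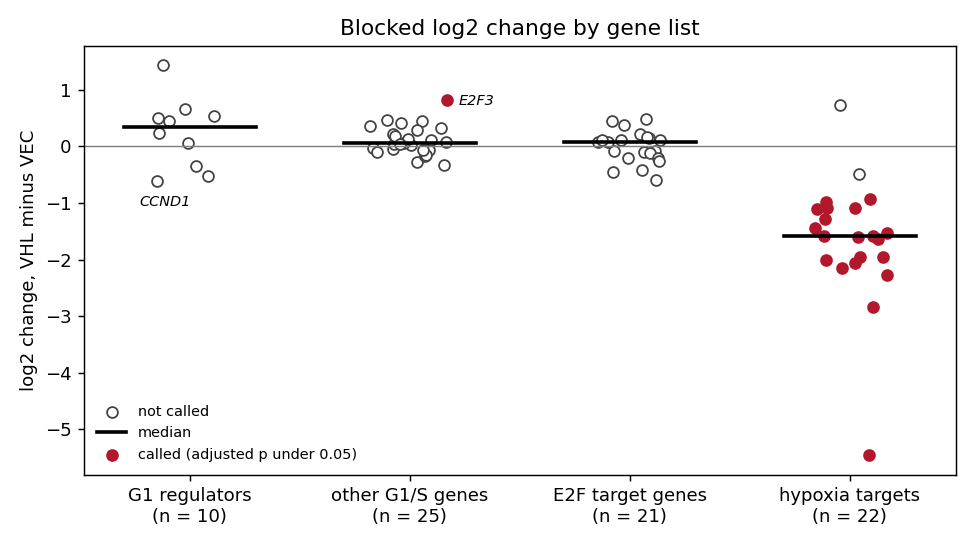
Blocked log2 change of every tested gene in 4 lists, with filled points for genes called at an adjusted p under 0.05 (edgeR) and a bar at the median of each list. The medians are 0.34, 0.05, 0.07 and -1.59 from left to right; filled points are E2F3 and 20 hypoxia-inducible genes.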

How the data were processed

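The authors deposited raw counts per gene symbol from alignments to hg19, per the file headers. The submitters' processing notes name featureCounts and HOMER without a role or version. The aligner, annotation, strand use and treatment of reads mapping to several places are not given in the sources used here. Libraries were grouped by title. Titles of the RNA libraries mention ChIP-seq, and an FPKM workbook is listed as their description, but the files hold whole-number counts and were treated as RNA-seq. Names of the replicate 2 alignments differ in form from those of replicate 1 per the file headers, and deviations from group means correlated at 0.983 between libraries with the same number, and what the numbers mark is not stated.

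Counts were fitted in edgeR 4.0.16 (R 4.3.3): filterByExpr left 24417 of 43682 symbols, followed by TMM, estimateDisp, glmQLFit and glmQLFTest (two-sided) with replicate number and group as terms (1 residual degree of freedom). The replicate term was used because the comparison is within a replicate number. Earlier results of these data, known when the term was chosen, had also shown that libraries separate by that number. Calls are Benjamini-Hochberg adjusted p under 0.05. SE was obtained from the log2 change and the F statistic (size of change over root F), which rests on a variance shared in part over genes. An SE therefore need not follow the gene's own pairs. CDK6 had pair changes of 0.17 and 0.82 with an SE of 0.24, and CCND3 had 0.57 and 0.48 with an SE of 0.33. Pair changes are differences of log2 CPM with a prior count of 2; counting intervals are exact (Clopper-Pearson) intervals of the CPM ratio. Alternatives were DESeq2 1.42.0, other scalings and filters, protein-coding genes alone (classes by symbol from a RefSeq table of GRCh38.p14), no replicate term and leaving out libraries. The fits were tested on simulated counts. Named genes were the 10 members, genes of the other G1/S and E2F lists that were called (up to 10) or, failing that, the 2 with the smallest adjusted p, those nearest to CCND1, and VHL. Some genes that this rule or the lists hold are not reported here. CDKN2A, CDKN2B, CDKN2D, CCNE1, CDK2, BHLHE40 and the marker genes printed were chosen after their values were seen. Members and lists were chosen with earlier results of these data known.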

Additional observations from a re-analysis of the deposited data

How the results depend on the processing

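The replicate block decided the count of calls: 756 genes with it and 0 with no replicate block (edgeR, 22 at an unadjusted p under 0.05, smallest adjusted p 0.999991), also 0 when any single library was left out of that fit. With the block, 1181 genes were called among those with at least 20 counts in every library and 1215 in DESeq2. Of the 10 G1 genes, 1 was called with DESeq2 size factors and with library totals only, 2 under the stricter filter and with protein-coding genes alone, and 3 in DESeq2, against 0 in the main fit. CCND1 became a call at -0.64 with DESeq2 size factors, -0.59 with library totals only, -0.61 under the stricter filter, -0.64 in DESeq2 and -0.63 with protein-coding genes alone. Its change ranged from -0.77 to -0.44 over the replicate pairs alone and the fits without a library.

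Leaving out a library without the replicate term compares libraries across replicate numbers by construction, and signs then turned: CDK4 ranged from -0.80 to 0.038, CDKN1A from -0.20 to 1.57, CDKN1B from -0.072 to 0.16, E2F3 from -0.54 to 2.09 and RRM2 from -0.12 to 1.15. CDK4 was at 0.014 without VEC replicate 1. In pair 1 alone, RB1 was at -0.075 (0.52 in pair 2) and CDKN1B at -0.036. A replicate left out of the blocked fit leaves no residual degree of freedom, so the pairs alone have values and no test. Depth limits CDKN1C and CCND3 most, at 40 to 211 counts a library.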
